A study of Mus musculus with 32 samples.

Results

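Antibody-secreting plasma cells were compared with the naive B cells that stand at the start of the B cell response. The comparison takes 4 plasma cell and 4 naive B cell libraries, 8 of the 32 libraries of the series, chosen by the population and the genotype WT in their labels and not by any measured value. Both populations were sorted from spleens of C57BL/6 mice aged 12 weeks, 14 days after an intraperitoneal dose of NP-CGG mixed with alum. NP-CGG is a hapten joined to a carrier protein, which B cells answer with the help of T cells. The labels give the genotype of these 8 libraries as AID-cre WT, so all of them come from mice with the AID-cre allele and without aPIK3CD, the activated PIK3CD that the series was set up to study. The labels give no control without Cre. Each library was made from 500 sorted cells by SMART-Seq v4, a kit for small inputs. The labels do not state the sorting markers or whether the replicates were separate mice, so the p-values measure the spread between these libraries, which may be partly technical.

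A naive B cell that meets antigen and T cell help can turn into a plasma cell, which gives up antigen receptor signalling and antigen presentation and devotes itself to making and secreting immunoglobulin. The switch is controlled by 2 opposed sets of transcription factors, with Pax5, Bach2, Bcl6 and Spib on the B cell side and Prdm1 (Blimp-1), Irf4 and Xbp1 on the plasma cell side. Secretion on this scale needs an enlarged endoplasmic reticulum (ER), where antibody chains are folded, oxidized, glycosylated and, when they fail, removed.

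Total gene counts were 1965329 to 2820830 in the naive libraries and 473149 to 704361 in the plasma cell libraries, so the groups did not overlap in depth. Immunoglobulin genes took 0.924% to 1.25% of the counts in naive B cells and 9.12% to 11.6% in plasma cells. Marker genes followed the labels. All 10 plasma cell markers examined were higher and all 10 naive follicular B cell markers were lower in plasma cells, whose summed naive marker level was 762 to 1317 CPM (counts scaled to the total of each library) against 6935 to 8002 in the naive libraries. In bulk samples such as these, fewer cells of a type and less RNA per cell cannot be told apart. Of 9768 genes with enough counts to be tested, 2479 were higher in plasma cells (25.4%) and 2363 were lower (24.2%) at an edgeR Benjamini-Hochberg adjusted p below 0.05. More than 2-fold differences were called for 1849 genes upwards (18.9%) and 1662 downwards (17%). The median log2 fold change of all genes tested, plasma cells minus naive B cells, was -0.09. In 2317 genes (23.7%) all 4 plasma cell values lay above all 4 naive values, and in 2254 (23.1%) all lay below. The first principal component held 72.4% of the variance and separated the populations. The second held 6.52% and set plasma cell replicate 2 apart, and without that library 2331 genes were higher and 2439 lower.

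**Figure D1:**
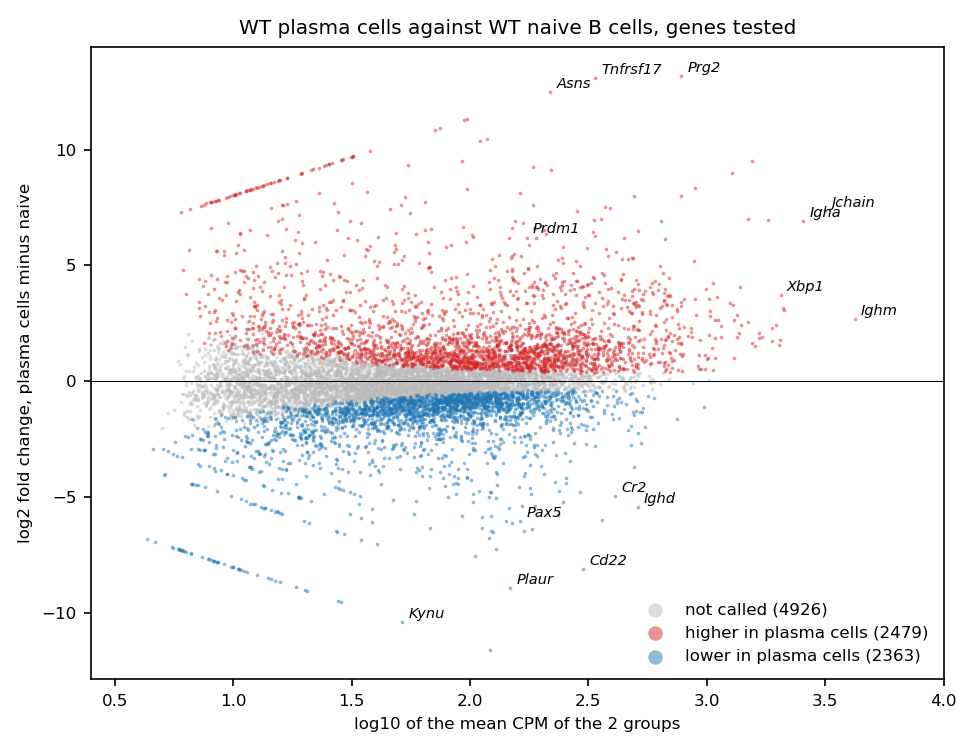
Log2 fold change of each of 9768 genes tested (vertical axis, plasma cells minus naive B cells) against the log10 of the mean CPM of both groups. Red points are the 2479 genes called higher in plasma cells, blue points the 2363 called lower and grey points the rest. The lines of points along the upper and lower left edges are genes with 0 or few counts in 1 population, whose fitted values depend on the prior count.

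The transcription factors of the plasma cell program separated the populations without overlap. Prdm1 (chr10:44437177-44528501, GRCm38), the repressor Blimp-1 that shuts down the B cell program, measured 0.454, 6.71, 3.37 and 7.06 CPM in the 4 naive libraries and 305, 354, 346 and 363 CPM in the 4 plasma cell libraries (log2 fold change 6.20, SE 0.37, edgeR adjusted p = 5.3e-09). Xbp1, the factor that expands the secretory apparatus, measured 342, 245, 296 and 276 CPM in naive B cells and 3889, 3967, 3339 and 4014 CPM in plasma cells (log2 fold change 3.71, SE 0.14, edgeR adjusted p = 1.8e-10). Each plasma cell library held more than each naive library of both genes. Irf4, which activates Prdm1, measured 121, 110.4, 170.5 and 135 CPM against 906, 1276, 911 and 960.1 CPM (log2 fold change 2.91, SE 0.18, edgeR adjusted p = 5.6e-09). The highest of these, in plasma cell replicate 2, stood well apart from the other plasma cell values. Ell2, an elongation factor that favours the secreted form of immunoglobulin heavy chain RNA, rose from 45.6 ± 10.5 to 654 ± 79.7 CPM (mean ± SD, n = 4, as throughout; log2 fold change 3.84, SE 0.19, edgeR adjusted p = 1.04e-09). Pou2af1, the coactivator OCA-B, rose from 238 ± 38.5 to 785 ± 70.1 CPM (log2 fold change 1.72, SE 0.15, edgeR adjusted p = 3.02e-07).

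Of 18 tested genes on the list of plasma cell transcription factors and cofactors, 13 were higher and 4 lower, with a median log2 fold change of 1.83, against 25.4% and 24.2% of all genes. Eaf2, a partner of the Ell factors, rose by 5.31 (SE 0.19), and Creb3l2, an ER-anchored transcription factor, by 6.53 (SE 0.23) on the log2 scale. Creb3l2 stood at 4.36 ± 1.34 CPM in naive B cells and 408 ± 41.9 CPM in plasma cells. The 4 that were lower were Zbtb32 (-1.68), Bhlhe40 (-2.04), the corepressor component Tbl1xr1 (-0.96, SE 0.19) and Pdlim1 (-2.26, SE 0.44).

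The B cell side moved the other way, and some of its factors were nearly absent from plasma cells. Pax5 (chr4:44524757-44710487), which maintains B cell identity, measured 365, 247, 310.3 and 358 CPM in naive B cells and 0, 0, 4.92 and 13.7 CPM in plasma cells (log2 fold change -6.06, SE 0.45, edgeR adjusted p = 4.63e-08). The 2 plasma cell libraries at 0 held no Pax5 count. Spib measured 279, 458, 311 and 293 CPM against 2.16, 5.10, 6.56 and 0 CPM (log2 fold change -6.49, SE 0.38, edgeR adjusted p = 4.58e-09). Bcl6, the germinal centre repressor that is also present at a low level in naive B cells, measured 16.8, 26.8, 22.2 and 18.6 CPM in naive B cells and had 0 counts in all 4 plasma cell libraries. With a floor of 3 counts set for the 4 libraries together, Bcl6 was at least 13.7-fold lower in plasma cells. Bach2, a repressor of Prdm1, was lower but still present, with 240.4, 208, 199 and 243 CPM in naive B cells and 32.4, 38.2, 23 and 34.3 CPM in plasma cells (log2 fold change -2.82, SE 0.21, edgeR adjusted p = 4.97e-08). Ebf1 kept a similar remainder (311 ± 45.1 and 37.7 ± 7.45 CPM; log2 fold change -3.06, SE 0.21, edgeR adjusted p = 2e-08), and Irf8 a larger one (459 ± 42.5 and 128 ± 27.4 CPM; log2 fold change -1.84, SE 0.17, edgeR adjusted p = 4.99e-07).

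Over the list of B cell transcription factors, 20 of 29 were lower and 3 higher, with a median of -1.84. Hhex (-6.48, SE 0.38) and Bcl11a (-5.47, SE 0.26) fell from 243 and 285 CPM to 2.76 and 6.70 CPM. Mef2b (3.35, SE 0.31) and Tcf4 (1.19, SE 0.16), an E protein, were among the 3 that were higher, and the plasma cell values of both lay above all naive values.

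**Figure D2:**
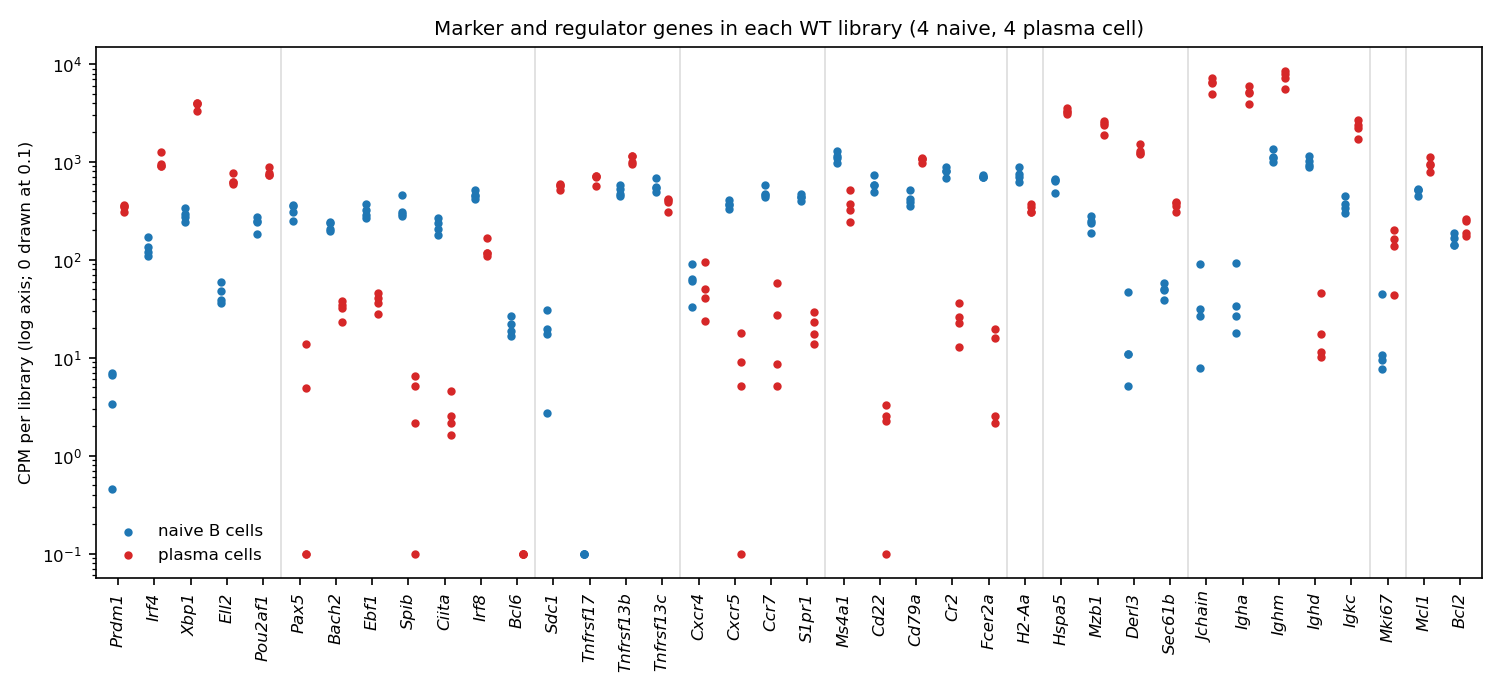
CPM of 38 marker and regulator genes in each of the 8 libraries, on a log axis with values of 0 drawn at 0.1. Blue points are the 4 naive libraries and red points the 4 plasma cell libraries, and grey lines divide the genes by role. Cxcr4, Mki67 and Bcl2 are the genes whose groups overlap.

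The product of the plasma cell, immunoglobulin, was encoded by some of the most changed genes. The class-switched heavy chain constant genes were low in the naive libraries and far higher in all plasma cell libraries, apart from Ighe. Igha (IgA; chr12:113254830-113260236) measured 93.5, 18.0, 27.0 and 34.2 CPM in naive B cells and 5072, 6021, 3939 and 5209.9 CPM in plasma cells (log2 fold change 6.90, SE 0.44, edgeR adjusted p = 9.55e-09). The J chain gene Jchain, which joins IgA and IgM monomers, measured 89.8, 7.93, 31.3 and 26.7 CPM and 6400.1, 7269, 4917 and 6513 CPM (log2 fold change 7.36, SE 0.54, edgeR adjusted p = 4.63e-08). For both genes the highest naive value was that of replicate 1. Ighg3 rose by 7.02 (SE 0.39) from 22.8 ± 11.7 to 2960.3 ± 1019.6 CPM. The 3 other IgG genes were named after their values were seen. Ighg2b measured 44.0, 1.83, 1.01 and 70.6 CPM and 3694, 4520.0, 2597 and 3630.3 CPM (log2 fold change 6.97, SE 0.84, edgeR adjusted p = 7.29e-06), and Ighg2c 18.6, 0, 0 and 0.743 CPM and 3324, 3893, 2289 and 2835 CPM (log2 fold change 9.52, SE 0.79, edgeR adjusted p = 1.72e-07). Ighg1, the isotype that alum favours in mice, differed among the plasma cell libraries, with 3876, 3317, 1642 and 1365 CPM against 22.2, 0.305, 0.337 and 0 CPM in naive B cells (log2 fold change 8.99, SE 0.87, edgeR adjusted p = 8.87e-07). Ighe, the IgE gene, did not pass the filter for testing. It had 1115 counts in plasma cell replicate 1 and 0, 1 and 2 counts in the other plasma cell libraries, and 1, 0, 0 and 0 counts in the naive libraries.

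Ighd, the IgD gene that marks naive B cells, went the opposite way, with 1160.0, 888, 928 and 1019 CPM in naive B cells and 17.3, 10.2, 45.9 and 11.4 CPM in plasma cells (log2 fold change -5.44, SE 0.31, edgeR adjusted p = 3.45e-09). Of the 12 constant genes tested (the J chain gene included) 11 were higher and Ighd alone lower, with a median of 4.97. The 11 include Igkc and Ighm, whose values are limited by a bound on counts described below. Among variable segments 73 of 76 heavy chain (median 4.34) and 81 of 86 kappa segments (median 3.84) were higher, and 1 kappa segment, Igkv12-98, was lower (-2.75, SE 0.69). Variable segments resemble one another closely, so how reads were divided among them is uncertain. Igkv12-98 lost its call in a single fit over all 8 groups (adjusted p = 0.0993), and its value was -6.05 without plasma cell replicate 3. All of these segments are short, and with the trend of fold change over exon length removed the medians were 2.41 (64 higher) and 1.85 (65 higher, 2 lower).

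For the genes used by both populations the CPM values need the raw counts beside them. No gene in these libraries exceeded 1.96 counts per exonic base, and the genes closest to that level were immunoglobulin genes. Igkc, the kappa constant gene with 532 exonic bases, had 979, 994, 994 and 996 counts in naive B cells and 1038, 1041, 1044 and 1034 counts in plasma cells. Ighm, with 1886 exonic bases, had 3003, 3308, 3236 and 3057 counts against 3347, 3322, 3398 and 3428. These nearly equal counts came from libraries whose totals differed as given above. In CPM they appear as a rise of 2.63 for Igkc (SE 0.17; 363 ± 60.5 to 2244 ± 393 CPM) and of 2.66 for Ighm (SE 0.15; 1149 ± 151 to 7279 ± 1241 CPM) on the log2 scale. Corrected for a bound of 2 counts per base these values were 3.08 and 2.91, and with the exon length trend removed 1.09 and 2.41. Igkc lay close to the bound in both populations, so neither the size nor the sign of its difference can be read from these values. Ighm reached 1.75 counts per base in naive and 1.82 in plasma cell libraries, so the size of its difference is uncertain too. In plasma cell libraries 92 genes exceeded 1 count per base, 89 of them immunoglobulin genes, T cell receptor genes or Jchain, and in naive libraries 28 did, 17 of them of these kinds.

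**Figure D3:**
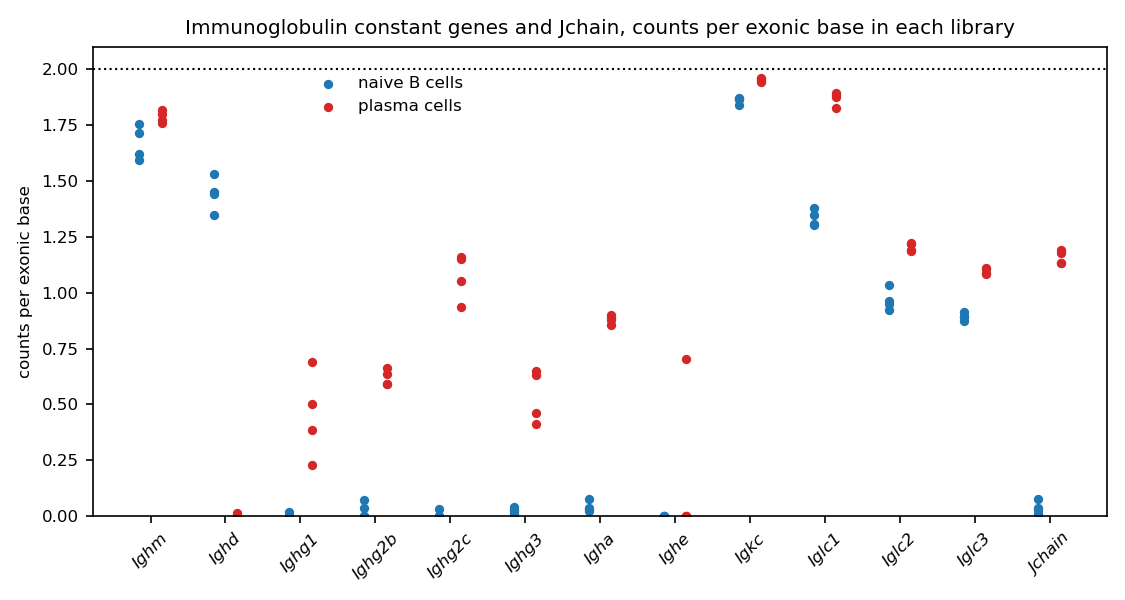
Counts per exonic base (vertical axis) of the immunoglobulin constant genes and Jchain in each of the 8 libraries, blue for naive B cells and red for plasma cells. The dotted line marks 2 counts per base. Igkc and Ighm lie close to the line in both populations, Ighd is high in naive B cells alone, and Ighe has a single high value, in plasma cell replicate 1.

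The folding machinery of the ER rose almost as a whole. Of 36 tested ER chaperones and protein disulfide isomerases 34 were higher and 0 lower, with a median log2 fold change of 2.46, against 25.4% of all genes higher. Hspa5, the chaperone BiP, measured 656, 481, 676 and 635 CPM in naive B cells and 3311, 3114, 3268 and 3529.7 CPM in plasma cells (log2 fold change 2.43, SE 0.14, edgeR adjusted p = 2.71e-09). Hsp90b1, the chaperone GRP94, measured 445, 358, 504 and 379.9 CPM and 4040.3, 4084, 3326 and 3692 CPM (log2 fold change 3.17, SE 0.15, edgeR adjusted p = 6.2e-10). Both genes were already expressed in every naive library, and the groups were far apart. Mzb1, an ER cochaperone of B cells and plasma cells, rose from 239 ± 39.9 to 2337 ± 316 CPM (log2 fold change 3.29, SE 0.16, edgeR adjusted p = 1.04e-09). Dnajc3 (3.56, SE 0.14), Creld2 (4.23, SE 0.18), the peroxiredoxin Prdx4 (4.23, SE 0.18), which supplies oxidizing power for disulfide bonds, and the disulfide isomerase Txndc5 (3.06, SE 0.13) had the smallest p-values of the list. Tmx1 and Qsox1, the 2 members that did not pass, had values of 0.40 and 0.01.

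Genes of the unfolded protein response and of ER-associated degradation did the same, with 24 of 27 higher, 0 lower and a median of 2.07. Derl3, a channel component for degraded ER proteins, measured 10.9, 11.0, 46.8 and 5.2 CPM in naive B cells and 1509.7, 1282, 1204 and 1232 CPM in plasma cells (log2 fold change 6.12, SE 0.49, edgeR adjusted p = 1.12e-07). Its naive replicate 3 stood above the other naive values and still far below the plasma cell values. The mannosidase-like proteins Edem1 (155 ± 21.8 and 2597 ± 171 CPM; 4.06, SE 0.15) and Edem2 (3.54, SE 0.14) and the ligase adaptor Sel1l (3.98, SE 0.17) rose by a similar amount on the log2 scale. Ern1, which encodes the sensor IRE1 that splices Xbp1 RNA and was named after its values were seen, measured 0, 3.66, 0.337 and 3.34 CPM and 88.7, 153, 103 and 181 CPM (log2 fold change 6.02, SE 0.54, edgeR adjusted p = 4.14e-07). Atf6, another sensor, also named after its values were seen, rose from 76.9 ± 21.9 to 384 ± 27.9 CPM (log2 fold change 2.32, SE 0.21, edgeR adjusted p = 4.56e-07).

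Promoters of these genes were searched for the ER stress response element (ERSE), the pattern to which NF-Y and ATF6 bind together. It was spelled as CCAAT and CCACG with 9 bases between them, on either strand, in the RefSeq window from 250 bases before to 50 after each gene's start (GRCm38.p6). The pattern was found in 37 of 27025 genes with a window (0.137%). Of the ER chaperone list 7 of 32 genes with a window held it (21.9%), and of the unfolded protein response list 3 of 23 (13%). Among the tested genes 9 of 1769 that were higher held it (0.509%) and 0 of 1832 that were lower, while 4 of 3939 not called did (0.102%). The 9 were Calr, Canx, Creld2, Derl3, Dnajc3, Hsp90b1, Hspa5, Pdia6 and Syvn1, of which Calr, Canx, Pdia6 and Syvn1 are named for the pattern, after their values were seen. All 9 belong to the ER lists, so the share among the higher genes is not separate from the result for those lists. The pattern was chosen as an element of the ER stress response, so its high share in those lists was not a test. The stretches of 60 bases around the match are shown for 8 of the 9, because promoters of ER chaperones held the pattern at a far higher share than all promoters. Each is printed 5′ to 3′ along the gene's own strand, in lower case with both parts of the pattern in capitals. A match on the opposite strand reads CGTGG and then ATTGG.
Hspa5, chr2:34772005-34772064, plus strand: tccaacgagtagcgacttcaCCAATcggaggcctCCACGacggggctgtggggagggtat
Dnajc3, chr14:118937807-118937866, plus strand: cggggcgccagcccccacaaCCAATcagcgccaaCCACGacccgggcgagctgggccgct
Pdia6, chr12:17266471-17266530, plus strand: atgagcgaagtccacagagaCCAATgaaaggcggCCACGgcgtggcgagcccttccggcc
Syvn1, chr19:6046512-6046571, plus strand: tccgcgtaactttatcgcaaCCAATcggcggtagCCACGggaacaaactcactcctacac
Hsp90b1, chr10:86705617-86705676, minus strand: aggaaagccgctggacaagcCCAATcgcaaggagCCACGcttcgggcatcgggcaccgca
Canx, chr11:50325779-50325838, minus strand: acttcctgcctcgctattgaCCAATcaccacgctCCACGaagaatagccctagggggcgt
Derl3, chr10:75893222-75893281, plus strand: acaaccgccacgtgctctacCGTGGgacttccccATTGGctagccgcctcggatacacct
Creld2, chr15:88819500-88819559, plus strand: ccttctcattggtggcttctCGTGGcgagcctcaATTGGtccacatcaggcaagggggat

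The 8 genes with the same letters in the promoter differed widely in the size of their change. Syvn1, the ligase of ER-associated degradation, had the smallest value (0.98, SE 0.31) and Derl3 the largest (6.12, SE 0.49), with Canx, the lectin chaperone calnexin, at 1.23, SE 0.15 and Pdia6, a disulfide isomerase, at 2.36, SE 0.13. Syvn1 overlapped between the groups and lost its call when naive replicate 4 or any of plasma cell replicates 2, 3 and 4 was left out (adjusted p up to 0.074), and its value was 1.47 without naive replicate 2. Creld2 shares its pattern with Alg12, also named after its values were seen, a mannosyltransferase gene on the other strand that starts nearby. Alg12 did not pass the test (18.6, 21.7, 10.8 and 24.1 CPM in naive B cells and 21.6, 25.5, 18.0 and 25.1 CPM in plasma cells; log2 fold change 0.25, SE 0.41, edgeR adjusted p = 0.633), while Creld2 rose from 108 ± 27.6 to 2017 ± 139 CPM. A second pattern, the core TGACGTGG of the element to which XBP1 binds (UPRE), was present in 193 genes (0.714%) of all with a window. Of the tested genes with a window 86 of 7540 held it (1.14%). It was in 36 of the higher genes (2.04%), 12 of the lower genes (0.655%) and 38 of those not called (0.965%). Among genes of transport between ER and Golgi 6 of 32 held it. These were Copb1, Copb2, Kdelr3, Sec24d and Stx5a, which were higher, and Sec23a, which did not pass. A match describes letters in the window and is not evidence of binding.

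Entry into the ER and the steps that follow rose with the chaperones. Of 24 genes of signal recognition, the translocon and signal peptidase 23 were higher and 0 lower, with a median of 2.07. Sec61b, a subunit of the protein channel, measured 57.6, 38.7, 49.5 and 50.5 CPM in naive B cells and 381, 392, 312 and 354 CPM in plasma cells (log2 fold change 2.87, SE 0.18, edgeR adjusted p = 6.88e-09). Ssr4, Ssr3, Spcs3 and Sec11c, subunits of the translocon-associated complex and of signal peptidase, had values of 3.04, 2.93, 2.89 and 2.64. Of 37 genes of N-glycosylation 27 were higher and 1 lower (median 1.35). The oligosaccharyltransferase subunits Ddost (287 ± 38.6 to 1428 ± 121 CPM; 2.31, SE 0.14) and Krtcap2 (3.01, SE 0.17) rose, and so did the accessory subunit Magt1 (2.53, SE 0.16). Its paralogue Tusc3 was the single gene of this list that fell, from 67.4 ± 5.96 to 29.3 ± 9.43 CPM (log2 fold change -1.21, SE 0.27, edgeR adjusted p = 0.00195).

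Transport between ER and Golgi showed the same, and 34 of 38 genes were higher and 0 lower, with a median of 1.58. The cargo receptor Lman1, which carries glycoproteins out of the ER, measured 38.6, 59.8, 71.1 and 85.8 CPM in naive B cells and 943, 813, 899 and 672 CPM in plasma cells (log2 fold change 3.70, SE 0.22, edgeR adjusted p = 5.56e-09). Tmed3 (3.25, SE 0.16), Tmed10 (2.93, SE 0.17) and the coatomer subunit Cope (2.34, SE 0.15) rose as well. Kdelr3, a receptor that returns ER proteins from the Golgi and was named after its values were seen, had 0 counts in all 4 naive libraries and 71.4, 38.2, 70.6 and 22.9 CPM in plasma cells, at least 197-fold higher. Copz2, a coatomer subunit among the 12 largest rises, had 0 counts in naive B cells and 223, 155, 182 and 219 CPM in plasma cells, at least 725-fold higher.

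**Figure D4:**
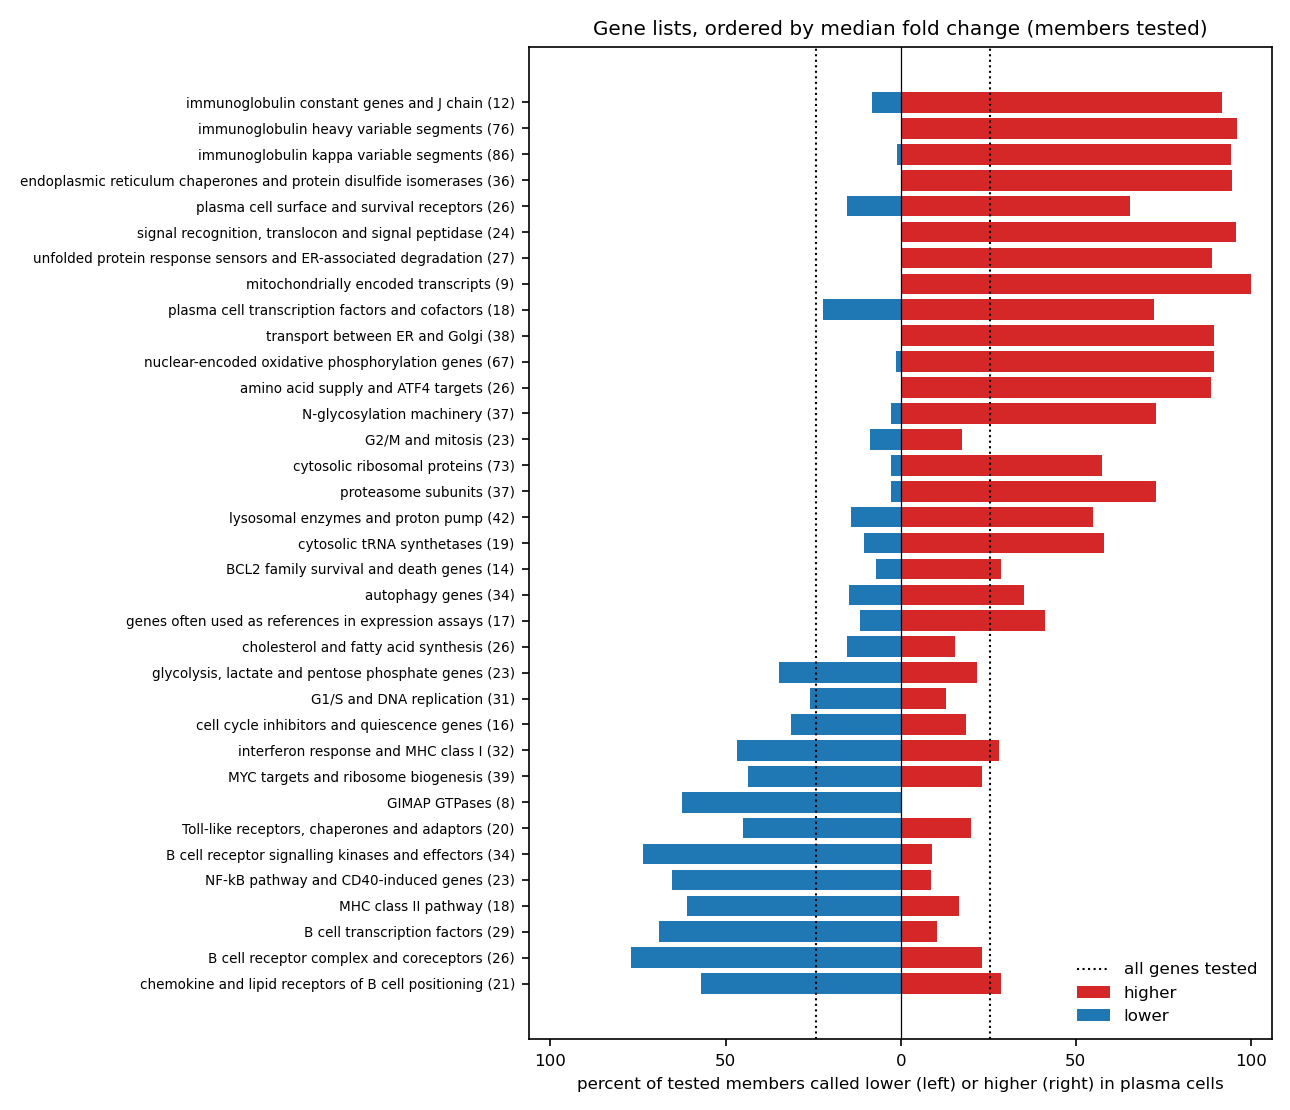
Percent of the tested members of 35 gene lists called higher (red, to the right) or lower (blue, to the left) in plasma cells, ordered by median log2 fold change, with the number of members tested in brackets. Dotted lines mark the shares over all genes tested, 25.4% higher and 24.2% lower. Each ER list has at most 1 member called lower, and B cell receptor, transcription factor and positioning genes lie at the bottom.

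Amino acid supply rose with the secretory genes. Of 26 genes of amino acid supply and ATF4 targets 23 were higher and 0 lower (median 1.37). Asns, asparagine synthetase, had 0 counts in all 4 naive libraries and 463, 324, 541 and 414 CPM in plasma cells, at least 1664-fold higher. Chac1, Atf5 and Slc1a4, named after their values were seen, were also at 0 counts in the 4 naive libraries and were at least 225-fold, 169.9-fold and 123-fold higher. Slc3a2 and Slc7a5, the chains of the large neutral amino acid transporter, rose from 219 ± 39.2 to 2282 ± 112 CPM (log2 fold change 3.38, SE 0.15, edgeR adjusted p = 4.52e-10) and from 15.9 ± 7.06 to 161 ± 18.1 CPM (log2 fold change 3.33, SE 0.29, edgeR adjusted p = 2.52e-07). Phgdh, the first enzyme of serine synthesis, rose by 2.09 (SE 0.18). Cytosolic tRNA synthetases were more often higher than lower, with 11 of 19 higher and 2 lower. These are 57.9% and 10.5%, against 25.4% and 24.2% of all genes. Yars (1.65, SE 0.17), Nars (1.47, SE 0.15), Cars (1.43, SE 0.18) and Gars (1.03, SE 0.15) rose, and the 2 that fell, Farsa (-0.92, SE 0.19) and Farsb (-0.72, SE 0.18), encode the subunits of the same enzyme, which charges phenylalanine.

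Most genes of respiration were higher, while those of glycolysis had no common direction. Of 67 nuclear genes of oxidative phosphorylation 60 were higher and 1 lower, with a median of 1.38. Ndufa4 measured 132, 84.2, 112 and 109.5 CPM in naive B cells and 497, 545, 412 and 441 CPM in plasma cells (log2 fold change 2.12, SE 0.17, edgeR adjusted p = 1.21e-07), and Ndufa13 rose by 2.03 (SE 0.17). Ndufs1, a long gene of complex I, was the one that fell (170.4 ± 15.4 to 99.6 ± 6.12 CPM; log2 fold change -0.77, SE 0.17, edgeR adjusted p = 0.00136). The 9 mitochondrially encoded transcripts tested were all higher, with a median of 1.87 and mt-Co1 rising from 478 ± 79.9 to 1806 ± 249.9 CPM (log2 fold change 1.92, SE 0.15, edgeR adjusted p = 1.09e-07). Of 23 genes of glycolysis and the pentose phosphate pathway 5 were higher and 8 lower (median -0.26). These are 21.7% and 34.8%, against 25.4% and 24.2% of all genes. Without naive replicate 2 there were 6 higher and 6 lower (median -0.03). The glucose transporters Slc2a1 (-1.45, SE 0.38) and Slc2a3 (-2.13, SE 0.70), enolase Eno1 (-0.76, SE 0.20) and G6pdx (-0.99, SE 0.20) fell, and hexokinase 2, Hk2, rose from 6.65 ± 3.66 to 36.1 ± 10.9 CPM (log2 fold change 2.44, SE 0.49, edgeR adjusted p = 0.000796).

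Exon length moves with these results. In the shortest 20% of the tested genes, with a median exon length of 1589 bases, 924 of 1953 genes were higher and 275 lower (median 0.65), while the medians of the 4 longer groups of the same size were -0.27 to -0.09. With the trend over exon length removed, the median of the nuclear oxidative phosphorylation genes was 0.86 (51 higher, 2 lower), that of the mitochondrial transcripts 0.97 (8 higher) and that of glycolysis -0.08 (6 higher, 5 lower). Cytosolic ribosomal protein genes had a median of 0.99 (42 of 73 higher, 2 lower), and 0.49 (33 higher, 6 lower) with the trend removed. Rplp0 (1.64, SE 0.15) and Rps14 (1.91, SE 0.18) rose and Rpl10a (-1.40, SE 0.36) and Rpl12 (-1.55, SE 0.49) fell. The ER chaperone list kept its median, 2.53 after removal of the trend. Depth and population cannot be told apart here, since every plasma cell library was shallower than every naive library.

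The proteasome, which destroys proteins expelled from the ER, had 27 of 37 subunit genes higher and 1 lower (median 0.87). Psmb1, Psmb6, Psmb8 and Psmb9, subunits of the catalytic core, rose by 1.63, 1.65, 1.49 and 1.31, and the activator subunit Psme3 fell (-0.70, SE 0.21). In autophagy 12 of 34 genes were higher and 5 lower (35.3% and 14.7%, against 25.4% and 24.2% of all genes), but 7 were higher and 7 lower without plasma cell replicate 3. Wipi1 measured 0, 1.22, 0 and 0 CPM in naive B cells and 104, 94.3, 115 and 112 CPM in plasma cells, and the LC3-family genes Gabarap (1.45, SE 0.15) and Map1lc3b (1.38, SE 0.17) rose, while Pik3r4 (-1.80, SE 0.26) and Atg16l2 (-1.72, SE 0.30) fell. Among lysosomal genes 23 of 42 were higher and 6 lower (median 0.85). Cathepsin B, Ctsb, rose from 319 ± 34.1 to 1397 ± 138 CPM (log2 fold change 2.13, SE 0.13, edgeR adjusted p = 8.98e-09), and Tfeb, a transcription factor of lysosomal genes, fell from 72.7 ± 41.0 to 12.6 ± 0.775 CPM (log2 fold change -2.52, SE 0.42, edgeR adjusted p = 0.00017). Summed monocyte and macrophage markers were 99.4 to 466 CPM in plasma cells and 25.6 to 77.5 in naive B cells, with 4 of the 4 tested among 10 higher. The largest part of the plasma cell sum was Lyz2 (160 CPM, with counts in 3 of 4 libraries). Among markers not tested Adgre1 was lower (13.7 and 3.27 CPM), C1qa was higher (0.279 and 4.57 CPM) and Fcgr1 had 0 counts. These genes were named for this after their values were seen. The part of such cells in the lysosomal result was not tested.

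The surface of the 2 populations differed in receptors for survival signals. Tnfrsf17 (BCMA; chr16:11313812-11320074), a receptor for APRIL and BAFF that supports long-lived plasma cells, had 0 counts in all 4 naive libraries and 703, 711, 719 and 565 CPM in plasma cells, at least 2518-fold higher. Tnfrsf13b (TACI) was present in both and rose, from 579, 448, 531 and 476 CPM to 1153, 953, 1140.3 and 1006 CPM (log2 fold change 1.06, SE 0.13, edgeR adjusted p = 1e-05). Tnfrsf13c, the BAFF receptor of naive B cells, fell by a small amount, from 678, 491, 545 and 559 CPM to 404, 311, 387 and 418 CPM (log2 fold change -0.58, SE 0.15, edgeR adjusted p = 0.00473). The 3 receptors thus had 3 patterns, one gained, one higher and one lower without loss. Sdc1 (CD138), the usual surface marker of plasma cells, measured 2.72, 19.5, 30.7 and 17.5 CPM in naive B cells and 582, 515, 597 and 569 CPM in plasma cells (log2 fold change 4.97, SE 0.40, edgeR adjusted p = 1.16e-07).

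Of 26 genes of plasma cell surface and survival receptors 17 were higher and 4 lower (median 2.18). Slamf7, a receptor that marks plasma cells, measured 158, 122, 131 and 117 CPM in naive B cells and 1417, 1422, 1401 and 1433 CPM in plasma cells (log2 fold change 3.42, SE 0.14, edgeR adjusted p = 2.2e-10), with the smallest SD relative to the mean among the plasma cell values of this list. Tmem176b (6.92, SE 0.37) and Ly6c2 (4.65, SE 0.25) rose too. Cd28, a costimulatory receptor of T cells that plasma cells also express, was named after its values were seen and measured 0, 9.15, 16.8 and 6.31 CPM and 541, 647, 664 and 800.1 CPM (log2 fold change 6.29, SE 0.49, edgeR adjusted p = 7.77e-08). Summed T cell markers were 185 to 223 CPM in naive B cells and 272 to 786 in plasma cells, with 4 of the 9 tested among 11 higher and 1 lower. Most of the naive sum came from the 1 that was lower, Lck (156 CPM in naive B cells and 73.1 in plasma cells). The 4 that were higher included Cd3g (7.82 and 85.6 CPM) and Trac (10.5 and 85.9 CPM). Lck, Cd3g and Trac were named for this after their values were seen. The part of T cells in the Cd28 result was not tested. Cd180 (-3.20, SE 0.28) and Cd38 (-2.79, SE 0.28) fell.

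The antigen receptor and its coreceptors were mostly lower, with the signalling chain gene Cd79a among the exceptions. Of 26 genes 20 were lower and 6 higher, with a median of -1.84. Cd22 (chr7:30865402-30880342), an inhibitory lectin of B cells, measured 489.9, 739, 587 and 584 CPM in naive B cells and 0, 2.55, 3.28 and 2.29 CPM in plasma cells (log2 fold change -8.11, SE 0.33, edgeR adjusted p = 2.08e-10). Fcer2a (CD23) measured 729.9, 710.1, 696 and 696 CPM and 2.16, 2.55, 19.7 and 16 CPM (log2 fold change -6.02, SE 0.33, edgeR adjusted p = 2.53e-09), and the complement receptor Cr2 809.8, 692, 878 and 802 CPM and 26.0, 12.7, 36.1 and 22.9 CPM (log2 fold change -4.97, SE 0.22, edgeR adjusted p = 5.75e-10). For these 3 genes the highest plasma cell value lay far below the lowest naive value. Ms4a1, which encodes CD20 (1126 ± 129 to 364 ± 115 CPM; -1.63, SE 0.19), was lower but remained measurable in every plasma cell library. Cd79a, the signalling chain Ig-alpha, was higher, with 514, 357, 393 and 419 CPM in naive B cells and 1059.8, 1073, 981 and 1097 CPM in plasma cells (log2 fold change 1.32, SE 0.14, edgeR adjusted p = 1.67e-06). With the exon length trend removed its value was 0.84. Cd81, a tetraspanin of the B cell coreceptor, rose by 1.61 (SE 0.16).

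Downstream of the receptor 25 of 34 signalling genes were lower and 3 higher, with a median of -1.09. The adaptor Bank1 measured 943, 956, 869 and 872 CPM in naive B cells and 67.1, 58.6, 65.6 and 89.2 CPM in plasma cells (log2 fold change -3.70, SE 0.16, edgeR adjusted p = 4.25e-10). The adaptor Stap1 (-3.23, SE 0.19) and the protein kinase C gene Prkcb (-3.12, SE 0.19) fell. Pik3cg, the gamma catalytic subunit of phosphoinositide 3-kinase, rose from 105 ± 17.4 to 273 ± 48.3 CPM (log2 fold change 1.37, SE 0.18, edgeR adjusted p = 2.09e-05). Blnk, the adaptor that links Syk to its targets, had 673, 507, 534 and 554 CPM and 809, 762, 756 and 752 CPM (log2 fold change 0.44, SE 0.13, edgeR adjusted p = 0.0105), and its call was lost without a filter on low counts and without plasma cell replicate 1 (adjusted p up to 0.134). Pik3cd, the delta subunit on which the series centres, was named after its values were seen and measured 117, 332, 147 and 201 CPM in naive B cells and 102, 129.9, 116 and 126 CPM in plasma cells (log2 fold change -0.75, SE 0.28, edgeR adjusted p = 0.0366). Its groups overlapped, and the call was lost in 7 of 20 alternatives, with a value of -0.39 and an adjusted p of 0.127 without naive replicate 2.

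Receptors that place B cells in follicles were lower, while some that place plasma cells were higher. Of 21 chemokine, lipid and adhesion receptors and regulators 12 were lower and 6 higher (median -1.96). These are 57.1% and 28.6%, against 24.2% and 25.4% of all genes, so the share higher was near that over all genes. The median was -0.87 without naive replicate 2 (10 lower, 7 higher), -1.16 without naive replicate 3 and -1.21 without naive replicate 4. Cxcr5, which guides B cells to follicles, measured 334, 369.7, 409 and 365 CPM in naive B cells and 0, 5.10, 18.0 and 9.14 CPM in plasma cells (log2 fold change -5.38, SE 0.38, edgeR adjusted p = 2.75e-08). Ccr7, which guides cells to T cell zones, measured 576, 433, 454 and 472 CPM and 8.65, 5.10, 57.4 and 27.4 CPM (log2 fold change -4.18, SE 0.40, edgeR adjusted p = 6.78e-07). S1pr1, which mediates exit into blood, measured 437, 468, 435 and 397 CPM and 17.3, 22.9, 29.5 and 13.7 CPM (log2 fold change -4.34, SE 0.22, edgeR adjusted p = 1.11e-09). Plasma cell values of Cxcr5 and Ccr7 varied more, relative to their means, than those of S1pr1. Ccr6 had 208 ± 28.8 CPM in naive B cells and 2 counts over the 4 plasma cell libraries, a ratio of 196 (exact binomial 95% interval 54.2 to 1619) in favour of naive B cells. Ccr10, a receptor associated with IgA plasma cells, had 0 counts in all naive libraries and 186, 115, 200.2 and 93.7 CPM in plasma cells, at least 574-fold higher, and the integrin Itgal rose by 1.95 (SE 0.14). Cxcr4, the receptor through which plasma cells home to bone marrow, did not pass the test. It measured 63.5, 90.3, 33.4 and 60.2 CPM and 23.8, 51.0, 41.0 and 96.0 CPM in overlapping groups (log2 fold change -0.24, SE 0.38, edgeR adjusted p = 0.633), with a sign that turned when naive replicate 2 was left out.

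Antigen presentation by MHC class II was lower in part. Its master activator Ciita measured 181, 266, 205 and 239.9 CPM in naive B cells and 2.16, 2.55, 1.64 and 4.57 CPM in plasma cells (log2 fold change -6.36, SE 0.33, edgeR adjusted p = 1.44e-09). Over the pathway 11 of 18 genes were lower and 3 higher, with a median of -1.18. Genes of peptide editing fell, among them H2-Oa (-6.53, SE 0.36), H2-DMb2 (-4.40, SE 0.32) and H2-Ob (-2.22, SE 0.14). The alpha chain gene H2-Aa kept a substantial level, with 889.6, 622, 701 and 757 CPM and 376, 308, 349 and 311 CPM (log2 fold change -1.14, SE 0.15, edgeR adjusted p = 1.42e-05). Its partner H2-Ab1, named after its values were seen, was higher in plasma cells (805 ± 139 and 1165 ± 91.8 CPM; log2 fold change 0.53, SE 0.14, edgeR adjusted p = 0.00559), but lost its call when all 8 groups were fitted at once and after correction for the bound on counts (adjusted p up to 0.162). The beta chain gene H2-Eb1, also named after its values were seen, fell (692 ± 116 to 439 ± 70.8 CPM; -0.65, SE 0.16). The invariant chain gene Cd74 (911 ± 145 to 3152 ± 489 CPM; 1.79, SE 0.15) and cathepsin S, Ctss (521 ± 91.6 to 2214 ± 332 CPM; 2.09, SE 0.16), were higher too. Both reached more than 1 count per exonic base in naive libraries, and after correction for the bound their values were 1.35 and 1.94. Summed markers of classical dendritic cells, which use the same pathway, were 203 to 282 CPM in naive B cells and 1132 to 1570 in plasma cells. Most of the plasma cell sum came from 1 gene, Cst3 (1164 ± 163 CPM), named for this after its values were seen. Of 4 such markers tested 3 were higher and 1 lower. Among the defining markers Flt3 passed and was higher (4.98 and 22.5 CPM). The others were not tested. Xcr1 was higher (0.507 and 7.79 CPM), and Zbtb46 (2.87 and 1.36 CPM), Clec9a (2.11 and 0 CPM) and Itgax (7.03 and 0.410 CPM) were lower. These defining markers were named for this after their values were seen. The part of dendritic cells in these results was not tested.

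Cell cycle genes did not move together. In plasma cells Mki67, a marker of dividing cells, measured 162, 204, 139 and 43.4 CPM and in naive B cells 7.71, 9.46, 10.8 and 45.3 CPM (log2 fold change 2.90, SE 0.54, edgeR adjusted p = 0.000445). The groups overlapped, since the highest naive value, in replicate 4, exceeded the lowest plasma cell value, also in replicate 4. Of 23 genes of G2/M and mitosis 4 were higher and 2 lower (17.4% and 8.70%, against 25.4% and 24.2% of all genes), with a median of 1.01. This count rested on naive replicate 4, the library with the high Mki67 value, since without it 10 were higher and 1 lower, with a median of 1.92. With limma voom 9 were higher, and 7 with the replicate block or without a filter on low counts. Besides Mki67, Cdk1 (2.04, SE 0.52) and Bub1b (1.86, SE 0.54) rose and Ndc80 (-2.35, SE 0.63) fell. Prc1 (log2 fold change 1.86, SE 0.63, edgeR adjusted p = 0.0238) lost its call without naive replicate 1 or 3 or plasma cell replicate 1 or 2 (adjusted p up to 0.168), and Cenpa (log2 fold change -0.64, SE 0.20, edgeR adjusted p = 0.0174) lost its call without naive replicate 4 and after removal of the length trend (adjusted p up to 0.068). Of 31 genes of G1/S and DNA replication 8 were lower and 4 higher (25.8% and 12.9%), and the share lower was close to that over all genes. Without plasma cell replicate 1 there were 2 higher. The helicase subunits Mcm3 (-1.91, SE 0.30), Mcm4 (-1.66, SE 0.21) and Mcm7 (-2.07, SE 0.34) and the polymerase gene Pold1 (-3.81, SE 0.39) fell, while Tk1 (2.32, SE 0.31) and Tyms (1.55, SE 0.43), enzymes of thymidine supply, rose. Summed germinal centre B cell markers, some of which mark division, were 59.8 to 110 CPM in naive B cells and 320 to 494 in plasma cells, with 6 of 7 tested higher and Bcl6 lower, and their part in these results was not tested. The defining marker Gcsam had 0 counts in naive B cells and was at 26.7 CPM in plasma cells.

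Growth genes under Myc were lower more often than higher. Myc itself measured 141, 201, 186 and 146 CPM in naive B cells and 26.0, 48.4, 42.7 and 34.3 CPM in plasma cells (log2 fold change -2.15, SE 0.23, edgeR adjusted p = 2.47e-06). Of 39 Myc targets and genes of ribosome biogenesis 17 were lower and 9 higher (median -0.53). These are 43.6% and 23.1%, against 24.2% and 25.4% of all genes, so the share higher was near that over all genes. Nop56 (-1.45, SE 0.21) and Nop2 (-1.92, SE 0.33), nucleolar factors, and the transferrin receptor gene Tfrc (-2.33, SE 0.33) fell, and Ccnd2 (1.92, SE 0.16) and Odc1 (2.11, SE 0.21) rose. Among cell cycle inhibitors and quiescence genes 5 of 16 were lower and 3 higher, shares near those over all genes, and 8 were lower without plasma cell replicate 1 or 2. With the libraries titled replicate 1 of aPIK3CD counted as WT, 10 were lower. Klf2 (236 ± 44.4 to 38.4 ± 11.1 CPM; -2.61, SE 0.23) and Btg1 (334 ± 35.0 to 48.6 ± 17.7 CPM; -2.77, SE 0.22), associated with resting lymphocytes, fell, while Cdkn2c, an inhibitor of CDK4 and CDK6 needed for plasma cell differentiation, rose from 25.1 ± 9.89 to 86.3 ± 8.78 CPM (log2 fold change 1.78, SE 0.32, edgeR adjusted p = 0.000322).

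Of 14 genes of the BCL2 family 4 were higher and 1 lower, and the share higher (28.6%) was near the 25.4% over all genes. With the exon length trend removed 5 were higher and 4 lower. Mcl1, on which plasma cell survival depends, measured 521, 446, 515 and 530.3 CPM in naive B cells and 934, 1131, 783 and 958 CPM in plasma cells (log2 fold change 0.92, SE 0.14, edgeR adjusted p = 6.25e-05). Bcl2 was at 159 ± 22.9 and 219 ± 44.0 CPM and did not pass the test (log2 fold change 0.45, SE 0.18, edgeR adjusted p = 0.0529), but did in 5 of 20 alternatives. The death promoters Bcl2l11 (Bim; 1.14, SE 0.27) and Bmf (2.39, SE 0.70) and the survival gene Bcl2l2 (2.39, SE 0.62) rose, and Bcl2l12 (-2.40, SE 0.65) fell.

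Most genes of the NF-kB activation pathway were lower. In the NF-kB pathway and among genes induced by CD40, 15 of 23 were lower and 2 higher (median -1.10). Rel measured 274, 211, 249 and 279 CPM in naive B cells and 23.8, 30.6, 11.5 and 22.9 CPM in plasma cells (log2 fold change -3.56, SE 0.25, edgeR adjusted p = 3.23e-08), and Cd40 fell from 302 ± 29.0 to 30.6 ± 11.5 CPM (log2 fold change -3.29, SE 0.24, edgeR adjusted p = 3.61e-08). The inhibitor gene Nfkbia rose, from 367 ± 61.4 to 1366 ± 68.8 CPM (log2 fold change 1.90, SE 0.14, edgeR adjusted p = 5.11e-08). Ebi3 (log2 fold change 1.05, SE 0.23, edgeR adjusted p = 0.00162), the other gene that was higher, lost its call with the length trend removed (0.33, adjusted p = 0.233). Of 20 Toll-like receptor genes and partners 9 were lower, 4 were higher and 7 did not pass. The shares lower and higher were 45% and 20%, against 24.2% and 25.4% of all genes. Tlr1 measured 258, 246, 251 and 211 CPM and 2.16, 0, 4.92 and 9.14 CPM (log2 fold change -5.82, SE 0.36, edgeR adjusted p = 6.71e-09), and Ly86, the partner of Cd180, fell (-2.77, SE 0.20), whereas Ly96, the partner of Tlr4, rose by 3.02 (SE 0.21).

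Interferon response and MHC class I genes were divided. Of 32 genes 15 were lower and 9 higher (median -0.49). These are 46.9% and 28.1%, against 24.2% and 25.4% of all genes, so the share higher was near that over all genes. Among genes of the antiviral response, Ifit3 fell from 68.9 ± 25.1 CPM to 1 count in 4 plasma cell libraries, a ratio of 132 (exact binomial 95% interval 23.7 to 5231). Oasl2 (-4.66, SE 0.59), Rtp4 (-3.27, SE 0.43) and Irgm1 (-1.49, SE 0.17) fell as well. The MHC class I light chain gene B2m rose from 438 ± 69.6 to 2545 ± 401 CPM (log2 fold change 2.54, SE 0.16, edgeR adjusted p = 7.72e-09), with up to 1.41 counts per exonic base in naive and 1.43 in plasma cell libraries, and had a value of 1.54 with the length trend removed. Isg20, an exonuclease gene, rose from 59.2 ± 6.47 to 546 ± 89.9 CPM (log2 fold change 3.21, SE 0.17, edgeR adjusted p = 1.88e-09). Of 8 GIMAP genes, small GTPases of lymphocyte survival, 5 were lower and 0 higher, with Gimap3 falling from 477 ± 29.5 to 72.8 ± 21.9 CPM (log2 fold change -2.69, SE 0.20, edgeR adjusted p = 4e-08).

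No direction prevailed in lipid synthesis, with 4 of 26 genes of cholesterol and fatty acid synthesis higher and 4 lower. Each share was 15.4%, below the 25.4% higher and 24.2% lower of all genes. Leaving out naive replicate 4 or plasma cell replicate 1, 2 or 4 left 2 higher, and removal of the length trend gave 7 higher and 3 lower. The desaturase genes Scd2 (44.4 ± 5.90 to 183 ± 32.2 CPM; 2.04, SE 0.20) and Scd1 (501 ± 39.2 to 119 ± 59.0 CPM; -2.10, SE 0.27) moved in opposite directions. Nsdhl (1.25, SE 0.25) rose and Hmgcs1 (-1.36, SE 0.39) fell. Mvk (log2 fold change 1.45, SE 0.52, edgeR adjusted p = 0.032) and Insig1 (log2 fold change 0.96, SE 0.37, edgeR adjusted p = 0.0418) lost their calls in 7 and 8 of the 19 alternatives that gave them a value. Of 17 genes often used as references in expression assays 7 were higher and 2 lower (median 0.17, and -0.05 without plasma cell replicate 1). Eef1a1 (1.70, SE 0.16) and Gusb (2.13, SE 0.17) were higher and Tbp (-1.08, SE 0.26) and Tfrc lower.

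The 12 largest rises outside immunoglobulin genes were led by Prg2 (chr2:84980461-84983632), which encodes a granule protein known from eosinophils. It had 1 count in the 4 naive libraries and 1635, 1725, 1313 and 1557 CPM in plasma cells, a ratio of 17075 (exact binomial 95% interval 3062 to 674667). Summed basophil and mast cell markers were 1.68 to 14.5 CPM in naive B cells and 9.84 to 51.0 in plasma cells. Of the defining markers Mcpt8, Cpa3 and Fcer1a were at 0 in both. Kit, the only marker tested, was higher (2.93 and 21.6 CPM, log2 fold change 2.80). Ms4a2 was at 0 in naive B cells and 2.26 CPM in plasma cells, with counts in 2 libraries. Kit and Ms4a2 were named for this after their values were seen. The part of such cells in the Prg2 result was not tested. Chst1, a sulfotransferase, and Fut1, a fucosyltransferase, had 0 naive counts and 158, 232, 148 and 219 and 132, 117, 171 and 149 CPM in plasma cells, at least 684-fold and 539-fold higher. A pair of receptor genes each had 1 naive count, the IL-13 receptor chain Il13ra1, with 218, 125, 349 and 249 CPM in plasma cells and a ratio of 2766 (exact binomial 95% interval 494 to 109472), and the prolactin receptor Prlr, with 216, 209, 241 and 213 CPM and a ratio of 2473 (exact binomial 95% interval 441 to 97899). Kbtbd12, Cpeb3 and the receptor Ryk had 0 naive counts and were at least 289-fold, 238-fold and 236-fold higher. Tnfrsf17, Asns, Copz2 and Ccr10, described above, complete the 12.

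The 12 largest falls held 5 receptor genes of natural killer (NK) cells. Klrk1 (NKG2D) measured 64.9, 61.3, 30.3 and 70.6 CPM and Ncr1 (NKp46) 89.8, 39.0, 37.1 and 56.1 CPM in naive B cells, and both had 0 counts in all plasma cell libraries, at least 35.5-fold and 33.4-fold lower. Klra4, Klra7 and Klre1 were at 0 in plasma cells too, at least 25.7-fold, 18.9-fold and 17.4-fold lower. Summed NK cell markers were 396 to 577 CPM in naive B cells and 52.6 to 130 in plasma cells, with 8 of the 9 tested among 10 lower and 0 higher, and Ncr1 and Klra8 at 0 in plasma cells. The part of NK cells in these falls was not tested. The others were Kynu, kynureninase (80.7, 90.9, 155 and 86.2 CPM in naive B cells, 0 counts in plasma cells, at least 66.4-fold lower), Lpcat2, Slc37a2, Tspan2, Lilra6 and Trim30c, all at 0 in plasma cells and at least 14.8-fold to 25.5-fold lower. Plaur, the urokinase receptor, measured 372, 229, 279 and 302 CPM in naive B cells and had 1 count in plasma cells, a ratio of 548 (exact binomial 95% interval 98.4 to 21671).

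The same comparison could be made in the 4 plasma cell and 4 naive B cell libraries of aPIK3CD mice, which share no library with the WT comparison. Their labels give AID-cre with aPIK3CD, except that the libraries titled replicate 1 carry the WT genotype in another field. Of 2398 genes higher in WT plasma cells and tested there, 2062 were also higher and 1 was lower, and of 2304 lower genes 1788 were also lower and 1 was higher. The aPIK3CD log2 fold changes were 6.74 for Prdm1, 3.65 for Xbp1, -7.87 for Pax5, 2.53 for Hspa5, 5.05 for Sdc1 and -9.37 for Cd22. The difference between the genotypes was tested as an interaction and passed for 4 of 10643 genes (0.0376%), with 1094 at an unadjusted p below 0.05. The count was 1 with the libraries titled replicate 1 of aPIK3CD taken as WT, 69 with the DESeq2 Wald test, 123 without a filter on low counts, and 9 without naive aPIK3CD replicate 4 or without plasma cell WT replicate 3.

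Of these, Igkv3-4, a kappa variable segment, differed in direction. In WT it rose from 138.5, 60.4, 82.6 and 66.8 CPM to 975, 967, 774 and 884 CPM, and in aPIK3CD it fell from 74.8, 86.1, 95.8 and 84.2 to 7.30, 7.31, 23.6 and 14.4 CPM (interaction -6.09, SE 0.39, edgeR adjusted p = 2.35e-08). The 4 aPIK3CD plasma cell libraries lay below every other library. The immunoglobulin receptor gene Fcmr, an IgM receptor, fell by 2.12 in WT and by 0.84 in aPIK3CD on the log2 scale (interaction 1.31, SE 0.20, edgeR adjusted p = 0.0108). In plasma cells Fcmr measured 175, 134, 165 and 209.7 CPM in WT and 375, 501, 385 and 350.1 CPM in aPIK3CD. Pld4, a nuclease gene, fell by 1.5 in WT and by 0.15 in aPIK3CD (interaction 1.38, SE 0.21, edgeR adjusted p = 0.0108). Cnpy3, a chaperone for Toll-like receptors, fell by 3.19 and 1.43 (interaction 1.78, SE 0.31, edgeR adjusted p = 0.0359), and kept its call in 8 of 21 alternatives, the other 3 genes in 20 of 21. Naive values of Fcmr, Pld4 and Cnpy3 overlapped between the genotypes.

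**Figure D5:**
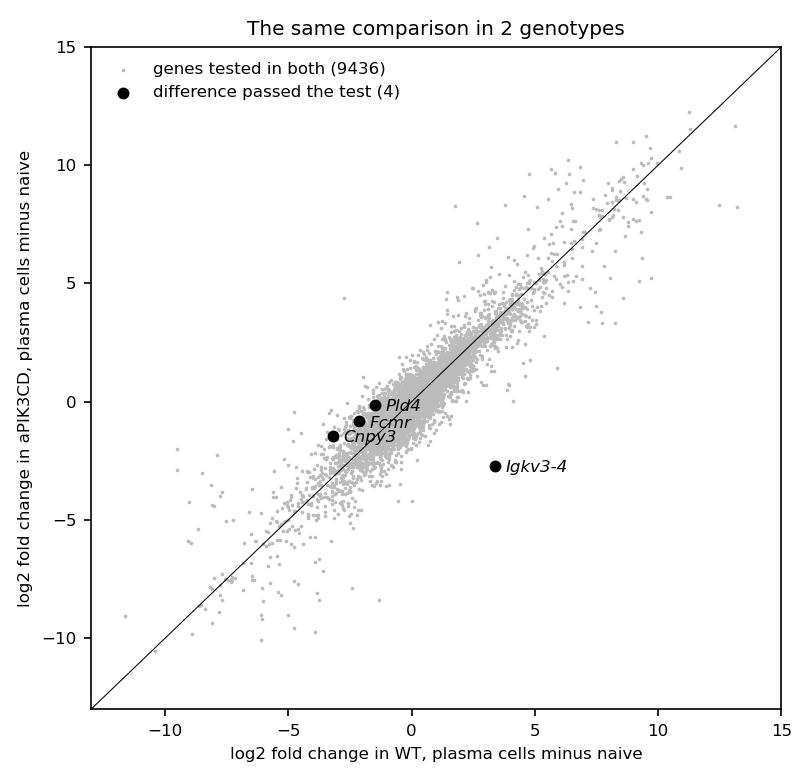
Log2 fold change, plasma cells minus naive B cells, of 9436 genes tested in both genotypes, with WT on the horizontal and aPIK3CD on the vertical axis and a line at equal values. Black points are the 4 genes whose difference passed the test, of which Igkv3-4 lies on opposite sides of 0 in the 2 genotypes.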

How the data were processed

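RNA was measured in libraries of 500 sorted splenic cells, 4 per group in 8 groups. The authors deposited whole-number read counts per gene, not normalized, for 53465 genes. STAR 2.4.2a, HTSeq and Picard are named per the submitters' processing notes, without their roles, and the genome build and annotation are not given in the sources used here. Groups were taken from the sample titles.

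Genes passed edgeR's filterByExpr (minimum count 10, minimum total 15). TMM factors, the quasi-likelihood F test (edgeR 4.0.16, R 4.3.3) and Benjamini-Hochberg adjustment over all genes tested at 0.05 gave the calls, with only the 2 groups compared in the fit, and the standard error (SE) is the log2 fold change over the square root of F. CPM use TMM-scaled totals. The interaction was fitted on the 4 groups of both genotypes. Folds against a group with 0 counts use a floor of 3 counts over that group, ratios with 1 to 3 counts carry 95% exact binomial intervals, and both cover counting error only.

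Exon lengths and coordinates come from GENCODE M21 (GRCm38) and promoters from RefSeq (GRCm38.p6, 32851 windows of 27025 genes). Alternatives were DESeq2 1.42.0 size factors and Wald test, limma 3.58.1 voom, upper quartile scaling, no filter, removal of immunoglobulin genes, thinning to the smallest total, a replicate block, a single fit over all groups, other grouping of replicate 1 of aPIK3CD, correction for a bound of 2 counts per exonic base, and leaving out each replicate. Removal of the exon length trend by loess was chosen after seeing the data. On simulated counts for the WT comparison, 41 of 100 genes changed 2-fold and 75 of 100 changed 4-fold were recovered, with 6 false calls among 9544 genes. Only these genes were changed, equally up and down and all above a minimum level. Far more genes differed in the data, which also held a bound on counts and a length trend. The simulated rates therefore need not apply to the data.

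The comparison, its 35 gene lists (1182 symbols, of which 8 were not in the table) and its named genes were chosen with earlier results of these data known. Named genes are a list of regulators and markers, up to 4 members of each list with the smallest p in the direction most of its calls took and up to 2 in the other direction, the 12 largest separated changes each way with a mean of at least 10 CPM and no immunoglobulin, T cell receptor or predicted gene, and the interaction genes. Genes named outside this rule are marked in the text as named after their values were seen. A few genes that this rule picks are not reported here.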

Additional observations from a re-analysis of the deposited data

Results flagged for a closer look

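In 24 of 462 sets of 4 libraries examined, 1 library lay apart from the other 3 by a gap whose share of the whole range of the set exceeded the 95% critical value of Dixon, and chance gives about 1 in 20. Plasma cell replicate 2 stood apart in Irf4 (1276.5 CPM against 906 to 960.1 in the others), Slc3a2 (2115 against 2321 to 2355), the pentose phosphate gene Rpia (125 against 43.4 to 56.2), Tbp (33.1 against 82.3 to 91.9) and the costimulator Cd86 (30.6 against 0 to 4.92). This library also stood apart on the second principal component.

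Plasma cell replicate 4 stood apart in Irf8 (169 CPM against 109.6 to 118), Tnfrsf17 (565 against 703 to 719), Cd38 (165 against 55.8 to 62.7) and Tusc3 (43.4 against 23.8 to 25.5). Plasma cell replicate 1 was high in Blnk (809 against 752 to 762) and Mcm7 (34.6 against 12.7 to 16.4), and plasma cell replicate 3 in Nsdhl (143 against 84.1 to 84.6) and Igkv12-98 (24.6 against 0 to 2.55).

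Among naive libraries, replicate 1 was high in Ighg1 (22.2 CPM against 0 to 0.337), Ighg2c (18.6 against 0 to 0.743), Klra7 (54.4 against 22.3 to 24.6) and Klre1 (40.8 against 21.9 to 25.0) and low in Bcl3 (137 against 181 to 184). Naive replicate 2 was high in Klf2 (302 against 207 to 221) and Wipi1 (1.22 against 0), replicate 3 in Derl3 (46.8 against 5.2 to 11.0) and Kynu (155 against 80.7 to 90.9), and replicate 4 in Mki67 (45.3 against 7.71 to 10.8) and Canx (379.5 against 299.9 to 310.0).

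The change from naive B cells to plasma cells differed between WT and aPIK3CD by the interaction test for Igkv3-4 (-6.09 on the log2 scale), Cnpy3 (1.78), Pld4 (1.38) and Fcmr (1.31).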

How the results depend on the processing

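The counts of genes called in the WT comparison stayed within 1.5 times their reported values under all 20 alternatives run, with 2182 to 2988 genes higher and 1993 to 3054 lower. The lowest of both came from thinning to the smallest total, and the highest from the DESeq2 Wald test and from no filter on low counts. Leaving out a library gave 2220 to 2422 higher and 2077 to 2439 lower. Same-numbered libraries of the 2 populations had correlations of -0.0529 to 0.0679 in their deviations, 3 of 4 correlated best with their own number, and the labels do not pair them. With the replicate block 2461 genes were higher and 2306 lower, 1839 and 1624 by more than 2-fold, and 4 genes had an interaction. The count of interaction genes, 4, became 123 without a filter, 69 with the DESeq2 Wald test and 1 with aPIK3CD replicate 1 counted as WT, and 3 to 9 when a library was left out, with 9 without naive aPIK3CD replicate 4 or plasma cell WT replicate 3. The cause was not tested. Of the named genes' values under alternatives 4901 kept direction and call, 38 lost the call, 5 gained it and 1 reversed, Cxcr4 (0.00438 without naive replicate 2, with -0.747 to 0.00438 over the libraries left out). Of the lists' medians 648 moved little, 42 moved and 7 reversed. Cholesterol and fatty acid synthesis had 0.0832 with limma voom, 0.0519 with the length trend removed and 0.0807, 0.111 and 0.00123 without naive replicates 1, 2 and 3, and -0.140 to 0.111 over the libraries left out. Autophagy had -0.0335 without plasma cell replicate 4 (-0.0335 to 0.533), and reference genes -0.0547 without plasma cell replicate 1 (-0.0547 to 0.321). Low genes are limited by the plasma cell libraries, the shallowest of which had 473149 counts.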

Other observations

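Summed markers of plasmacytoid dendritic cells were 719 to 1040.5 CPM in naive B cells and 1001 to 1198 in plasma cells. Of 8 tested 5 were higher and 3 lower. Among the defining markers tested, Siglech fell (-7.05 on the log2 scale), while Ccr9 (2.33) and Cox6a2 (2.44) rose. The defining markers Klk1 and Cd209d were not tested, and had counts in naive libraries but were at 0 in plasma cells. Ccr9, Cox6a2, Klk1 and Cd209d were named for this after their values were seen. Neutrophil markers summed to 0 to 0.454 CPM in naive B cells and 0 to 10.2 in plasma cells. S100a8, S100a9, Camp and Mpo were at 0 in plasma cells. The remaining defining marker, Ngp, named after its values were seen, had counts in 1 plasma cell library (mean 2.55 CPM). It was at 0 in naive B cells. Stromal and endothelial markers summed to 75.8 to 307 CPM in naive B cells and 32.8 to 58.6 CPM in plasma cells, without overlap. The only one tested, Pecam1, made up most of both sums and fell from 166 to 38.1 CPM (-2.15). The defining markers Cxcl12, Cxcl13, Col1a2 and Col3a1 had 0 counts in all naive libraries. Markers of erythroid cells and platelets summed to 59.9 to 131 CPM and 4.57 to 259.9 CPM.

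Promoters of MHC class II genes were searched on both strands for the X2 box, spelled TGACGC, and the CCAAT box. None of the 13 genes of that list with a window held TGACGC, which 8.37% of all genes with a window and 15.8% of those tested held. CCAAT was in 11 of the 13, against 41.1% of all and 43.1% of those tested. This says only that those letters are or are not in the window from 250 bases before to 50 after the start.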
